A study of Mus musculus with 3 samples.

Results

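The 10 genes described here encode the adaptors that carry signals from Toll-like receptors and interleukin-1 family receptors (Myd88, Tirap, Ticam1 and Ticam2), the kinases that MyD88 recruits (Irak1, Irak2, Irak3 and Irak4), the ubiquitin ligase Traf6 and the adaptor protein Tollip. They were listed by symbol, with earlier results of these data known, and all 10 were found among the 55536 annotated genes of the deposited tables. Total RNA was sequenced after ribosomal RNA depletion from the nuclear fraction of bone-marrow-derived macrophages (primary cells grown from marrow) of C57BL/6J mice. Lipid A, the portion of lipopolysaccharide sensed by TLR4, was given at 100 ng/ml for 12 h, washed out for 12 h, and given again at 100 ng/ml for 15 min. All libraries carried this 1 treatment, so the 3 libraries form 1 group, and the values are levels, not responses. They are labelled biological replicates 1 to 3 and share 1 donor identifier. No label states separate mice or cultures, so the spread between libraries may be partly technical. The labels name the fraction both nuclear and nucleoplasmic, and age and sex were not collected. Replicate 2 was made from 500 ng of RNA and the other two from 1 µg.

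Toll-like receptors signal through a cytoplasmic TIR domain, which binds the TIR domain of an adaptor. MyD88 gathers IRAK4, IRAK1 and IRAK2 into a complex, the Myddosome, in which IRAK4 is the upstream kinase, and TRAF6 then builds ubiquitin chains that lead to NF-kappaB. TRIF, the product of Ticam1, serves TLR3 and internalised TLR4, and leads to IRF3 and type I interferon. IRAK3, also called IRAK-M, is found mainly in macrophages and monocytes and is known as a brake on this pathway in cells that meet lipopolysaccharide repeatedly.

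A kinase needs an aspartate in its catalytic loop to transfer phosphate. The coding stretch of that loop is shown for the 4 Irak genes because it separates the 2 genes that keep this residue from the 2 that do not. It was read from the GENCODE M21 transcripts (mm10), aligned on the letters the 4 translated sequences share, and the codon in capitals is that of the catalytic residue.
Irak4: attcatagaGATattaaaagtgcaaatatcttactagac
Irak1: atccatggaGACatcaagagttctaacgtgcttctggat
Irak2: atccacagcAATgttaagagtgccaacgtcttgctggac
Irak3: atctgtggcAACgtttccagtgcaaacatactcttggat
The capitals are an aspartate codon in Irak4 (residue 311 of 459) and Irak1 (residue 341 of 711). They are an asparagine codon in Irak2 (residue 333 of 622) and Irak3 (residue 306 of 609). All 4 stretches cross the junction of exons 8 and 9, which falls after 20 of the 39 bases in each. On mm10 they lie between chr15:94558859 and 94561464 (Irak4, plus strand), chrX:74020517 and 74020962 (Irak1, minus strand), chr6:113676677 and 113678665 (Irak2, plus strand), and chr10:120146611 and 120165112 (Irak3, minus strand).

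All 10 genes were detected, meaning that TPM reached 1 or more in each of the 3 libraries. TPM of bulk RNA cannot tell fewer expressing cells from less RNA per cell. TPM counts transcripts against a total of 1000000 per library and allows for transcript length, so genes of 1 library can be set side by side. Of all 22015 nuclear-encoded protein-coding genes, 42.8% met the same rule. At a TPM of 5 in each library 9 of the 10 remained, beside 26.8%. In the authors' second quantification, of kallisto format and unscaled, 7 reached 1 in each library, beside 24.9%; Tirap, Ticam1 and Traf6 fell short in replicate 3. The median of log2(TPM + 1) over the 10 genes was 3.52 ± 0.21 (SD, n = 3), beside 3.25 ± 0.10 over the 9421 detected protein-coding genes. The members spanned a wide range within that median: Myd88 lay at percentile 84.5 of the detected genes and Tirap at percentile 15.9.

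**Figure D1:**
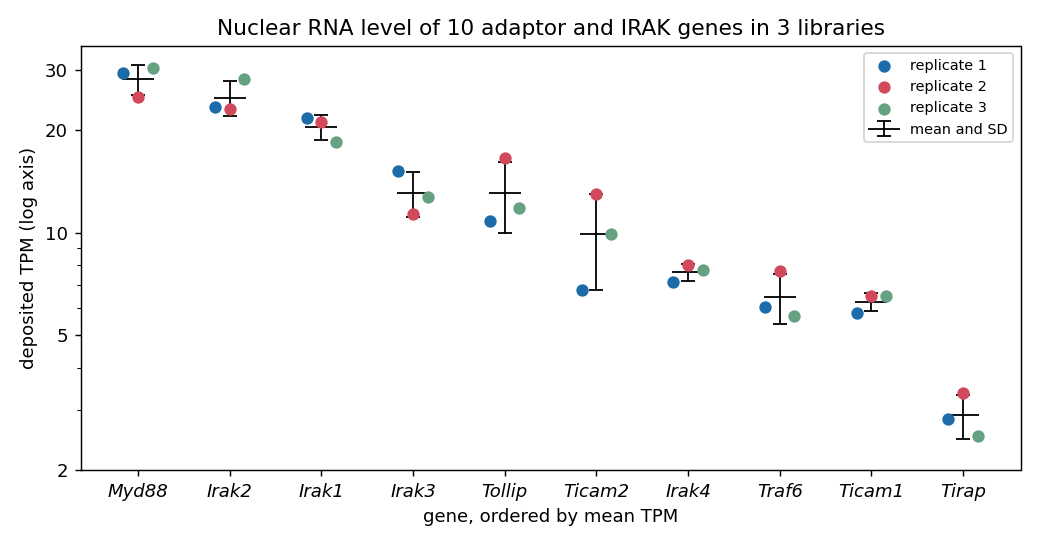
Deposited TPM (log axis) of the 10 genes in each library, ordered by mean; coloured points are libraries and black bars the mean and SD of 3. Myd88, Irak2 and Irak1 lie above 18 in every library, Tirap lies below 4, and Ticam2 shows the widest spread.

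Myd88, the shared adaptor, had the highest level. Its TPM was 29.49, 25.03 and 30.38 (replicates 1, 2 and 3 in this order, here and below), averaging 28.3 ± 2.87 (SD, n = 3) from 1182 to 1956 expected counts. Replicate 2 was lowest and the other two lay close together. The gene lies at chr9:119335934-119341411 on the minus strand.

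Ticam1, which encodes TRIF, was measured at 5.81, 6.49 and 6.49, a mean of 6.26 ± 0.393 (SD, n = 3) from 466 to 589 expected counts. Its 3 values were nearly alike, and none came near those of Myd88. Within a library, Myd88 exceeded Ticam1 by 2.17 ± 0.20 on the log2 scale, a 4.51-fold ratio that was above 1 in 3 of 3 libraries. The exact two-sided sign-flip test gave p = 0.25 for this and for each of the other 6 ratios tested, which is the smallest value 3 libraries allow. The Ticam1 gene lies at chr17:56269319-56276786 on the minus strand.

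Tirap and Ticam2 encode the bridging adaptors that link TLR4 to MyD88 and to TRIF. Tirap had the lowest level of the 10 genes, with TPM of 2.82, 3.37 and 2.52 and a mean of 2.90 ± 0.431 (SD, n = 3) from 294 to 383 expected counts. Its highest library was below the lowest of Ticam1, its neighbour in the order. Against Myd88 its log2 ratio was -3.29 ± 0.36, a 9.78-fold lower level, and in kallisto format it was -2.56 ± 0.39. Over protein-coding isoforms in rescaled kallisto format, Traf6 had the lower mean, 18.2 ± 2.19 against 18.6 ± 2.94 for Tirap. Even there, Tirap was the lower in replicates 2 and 3. The Tirap gene lies at chr9:35184551-35200291 on the minus strand.

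Ticam2, which encodes TRAM, was measured at 6.77, 12.95 and 9.92, a mean of 9.88 ± 3.09 (SD, n = 3). Replicate 2 was highest and replicate 1 lowest, 1.91 times apart. The SD of its log2(TPM + 1), 0.42, lay at percentile 92.8 of the detected protein-coding genes, the widest spread of the 10. Its expected counts were 861, 1112 and 1102. Ticam2 exceeded Ticam1 by 0.61 ± 0.39 (log2) in 3 of 3 libraries. Over protein-coding isoforms alone, an alternative chosen after the values were seen, that difference was 0.17 ± 0.32 and above 0 in 2 of 3.

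Irak4, the kinase at the head of the Myddosome, had TPM of 7.14, 8.03 and 7.76, a mean of 7.64 ± 0.456 (SD, n = 3) from 566 to 636 expected counts. Its spread was among the smallest, at percentile 9.73 of the detected genes. The gene lies at chr15:94543643-94581815 on the plus strand.

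Irak1, a kinase that IRAK4 phosphorylates, was measured at 21.67, 21.16 and 18.47, a mean of 20.4 ± 1.72 (SD, n = 3) from 1261 to 1668 expected counts. Irak4 stood below it by -1.42 ± 0.18 (log2 ratio), 2.67-fold, in 3 of 3 libraries. Over protein-coding isoforms alone the ratio was -0.69 ± 0.25, with the same direction in 3 of 3. The lowest Irak1 value exceeded the highest Irak4 value. The Irak1 gene lies at chrX:74013914-74023918 on the minus strand.

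Irak2, whose product is known for sustaining the later response, had TPM of 23.41, 23.14 and 28.25, a mean of 24.9 ± 2.88 (SD, n = 3) from 1185 to 1820 expected counts. Replicate 3 was highest, and the lowest value still lay above every Irak1 value. After rescaling over protein-coding genes it did not, at 104 against 109 for the highest Irak1 value. The log2 ratio of Irak2 to Irak1 was 0.28 ± 0.28, above 0 in 3 of 3 libraries but no larger than its SD. Without replicate 3 it was 0.12, and in the kallisto-format values described below it was 0.85 ± 0.26. Irak2 lies at chr6:113638467-113695026 on the plus strand.

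Irak3, the inhibitory member, was measured at 15.22, 11.3 and 12.68, a mean of 13.1 ± 1.99 (SD, n = 3) from 705 to 1355 expected counts. Replicate 1 was highest and replicate 2 lowest. Each library held more Irak3 than Irak4, by 0.76 ± 0.30 (log2), a 1.70-fold ratio. Over protein-coding isoforms alone that difference was 0.56 ± 0.51 in RSEM format (3 of 3 libraries above 0) and 0.22 ± 0.42 in kallisto format (2 of 3). Over all isoforms Irak3 lay below both Irak1 and Irak2 in every library. Over protein-coding isoforms it lay above Irak1 in replicate 1, at 12.1 against 10.6 TPM. The gene lies at chr10:120141648-120202130 on the minus strand.

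Traf6, the ubiquitin ligase downstream of the IRAKs, had TPM of 6.04, 7.70 and 5.68, a mean of 6.47 ± 1.08 (SD, n = 3) from 854 to 965 expected counts. It stood below Irak1 by -1.67 ± 0.19 (log2 ratio), 3.18-fold, in 3 of 3 libraries. Its range overlapped those of Irak4 and Ticam1. Over protein-coding isoforms alone, Traf6 lay below both of them in every library in both formats. Traf6 lies at chr2:101678429-101701669 on the plus strand.

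Tollip, an adaptor that binds IRAK1 and dampens signalling, was measured at 10.78, 16.52 and 11.79, a mean of 13.0 ± 3.06 (SD, n = 3) from 1199 to 1345 expected counts. Replicate 2 stood above the other two, 1.53 times the lowest. Its spread, at percentile 77.8, was the second widest of the 10 on this scale. After rescaling over protein-coding genes Irak3 (SD 0.29) exceeded Tollip (0.24), and after TMM scaling of counts Irak3 (0.34), Myd88 (0.29) and Irak2 (0.24) exceeded Tollip (0.20). Tollip lies at chr7:141874813-141918507 on the minus strand.

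By mean TPM the order was Myd88, Irak2, Irak1, Irak3, Tollip, Ticam2, Irak4, Traf6, Ticam1 and Tirap. Of the 9 pairs of neighbours in it, 3 had ranges that did not overlap: Irak2 over Irak1, Irak1 over Irak3, and Ticam1 over Tirap. After rescaling over protein-coding genes, Irak2 (lowest 104) and Irak1 (highest 109) overlapped. In rescaled kallisto format, Irak1 (lowest 85.7) and Irak3 (highest 89.2) overlapped. Only Ticam1 over Tirap stayed apart on each of these scales. In rescaled kallisto format the gap was narrow, with a lowest Ticam1 of 21.5 and a highest Tirap of 20.9. On the deposited TPM the ranges of the other 6 pairs overlapped. Within libraries, 3 of those 6 kept 1 direction in 3 of 3: Myd88 over Irak2 by 0.18 ± 0.13 (log2), Tollip over Ticam2 by 0.42 ± 0.22 and Irak4 over Traf6 by 0.25 ± 0.19 (SD, n = 3). Irak3 over Tollip, Ticam2 over Irak4 and Traf6 over Ticam1 held in 2 of 3 and did not differ beyond their spread. Over protein-coding isoforms alone Ticam1 lay above Traf6 in every library in both formats. In RSEM format its TPM was 5.81, 6.49 and 6.49, against 3.91, 5.81 and 4.09 for Traf6. In rescaled kallisto format it was 22.6, 21.5 and 24.8, against 17.0, 20.7 and 16.8. Over those isoforms Irak4 lay above Ticam2 in every library in kallisto format only, and Irak3 and Tollip kept no single direction.

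Replicate 2 held the highest value for 5 genes (Tirap, Ticam2, Irak4, Traf6 and Tollip), beside 59.5% of the detected protein-coding genes. It held the lowest value for Myd88, Irak2 and Irak3, beside 16.3% of the detected genes. Replicate 2 also had the lower RNA input, and nuclear-encoded protein-coding genes took 22.2% of its TPM, against 19.9% and 20.6% in replicates 1 and 3. Mitochondrially encoded mRNAs took 5.69% of its TPM, against 3.67% and 1.87%. The part of these differences in the results was not tested. After TPM was rescaled to a sum of 1000000 over nuclear-encoded protein-coding genes, replicate 2 was highest for 4 genes, beside 44.5% of the detected genes, and lowest for Myd88, Irak2 and Irak3, beside 26.7%. The median SD of log2(TPM + 1) over the 10 genes was 0.16, beside 0.20 over the detected genes.

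The expected counts over annotated genes totalled 19312032 to 23826101 per library, and Rn7sk, the 7SK RNA, alone took 28.4% to 33.3% of TPM. All 10 macrophage markers examined were detected, Lyz2 highest at 1616 ± 464 TPM (SD, n = 3). No marker of granulocytes, dendritic cells, T and NK cells, B cells, fibroblasts or mast cells was detected, and 1 of 5 erythroid markers was (Alas2). The summed TPM of the macrophage list was 3697, 3161 and 2423 in replicates 1, 2 and 3. That of the other lists ranged from 0 to 3.47.

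The same reads were also quantified by the authors in tables of kallisto format. Both sets were rescaled to a sum of 1000000 over nuclear-encoded protein-coding genes before they were set side by side. The ratio of kallisto-format to RSEM-format level ran from 0.768 for Ticam1 to 1.39 for Irak2. It was within 2-fold for 10 of 10 genes, beside 96.7% of the detected protein-coding genes. The top of the order changed: Irak2 stood at 120 ± 16.4 and Myd88 at 136 ± 20.0 in the RSEM format, and at 166 ± 26.0 and 110 ± 17.6 in the kallisto format (SD, n = 3). In the kallisto format the Irak2 and Myd88 ranges no longer overlapped, with Irak2 higher.

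Over protein-coding isoforms alone, Myd88 was the higher of the pair in both formats. The deposited RSEM-format TPM was then 25.01, 20.9 and 25.7 for Myd88 and 15.1, 13.4 and 15.3 for Irak2. The rescaled kallisto-format values were 101, 73.7 and 99.8 for Myd88 and 64.6, 45.8 and 58.2 for Irak2. The 2 genes' ranges did not overlap in either format. Irak2 was thus the higher of the pair only in kallisto format over all isoforms, among these 4 ways of summing.

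**Figure D2:**
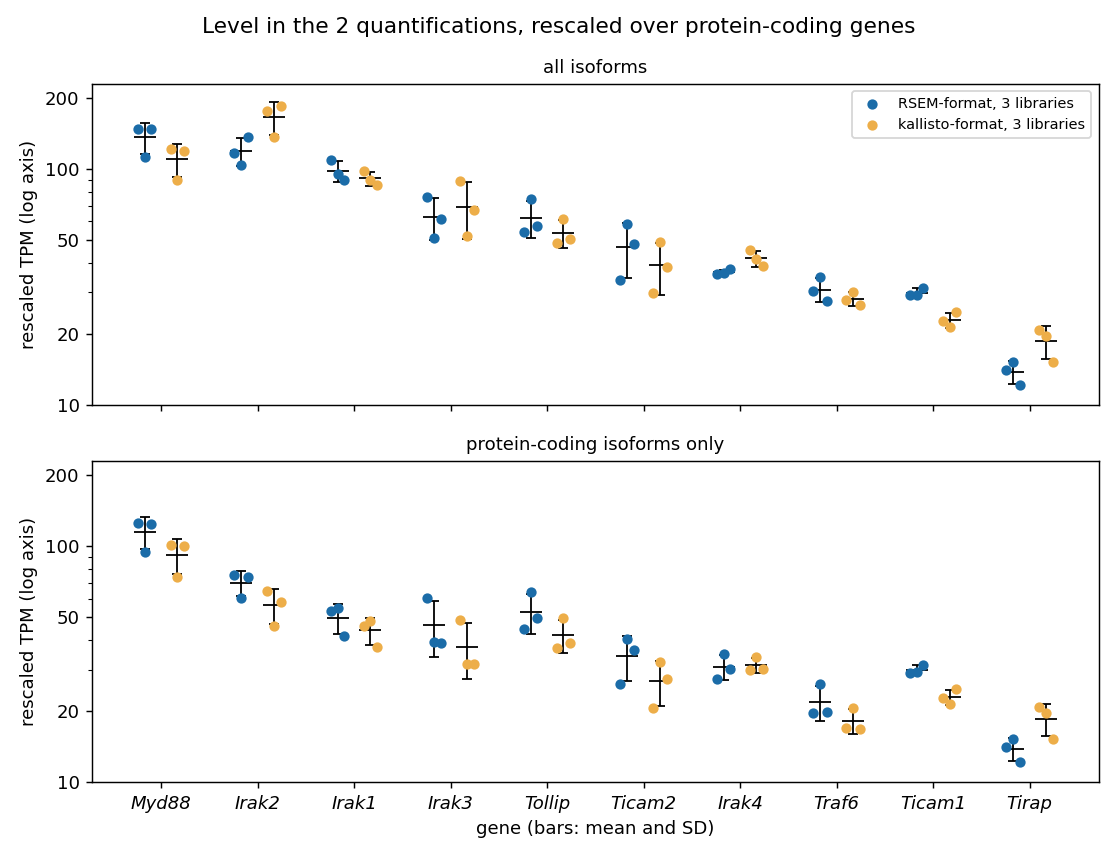
TPM rescaled to a sum of 1000000 over protein-coding genes (log axis) in both quantifications, over all isoforms (top) and protein-coding isoforms (bottom); points are libraries, bars the mean and SD of 3. Kallisto-format Irak2 is the highest value at the top, while Myd88 leads in both formats at the bottom.

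GENCODE annotates several isoforms for 9 of the 10 genes, from 2 for Ticam2 to 22 for Irak1, and a single one for Ticam1. The isoform with the highest mean TPM was the same in both formats for 9 of these 9 genes, beside 75% of 8760 detected protein-coding genes. In the 9 genes it was also protein coding, a condition that the 75% does not include. For Irak1 the leading isoform depends on the averaging. By mean share of gene TPM, which weighs the libraries alike and was added after the values were seen, the retained-intron form Irak1-215 led in kallisto format with 19.1% ± 1.74, ahead of Irak1-206 with 18.4% ± 6.86 (SD, n = 3). The leaders by that measure were the same in both formats for 8 of the 9 genes, beside 75.5% of the 8760. Within libraries, the Irak1 kallisto-format leader was Irak1-215, Irak1-206 and Irak1-204 in replicates 1, 2 and 3.

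Isoforms annotated as retained intron keep all or part of an intron that the protein-coding form removes. In nuclear RNA these tables cannot tell them apart from transcripts not yet fully spliced. The 7 genes with such an isoform held a median of 21.1% ± 3.11 of their TPM in it (mean and SD of the medians of 3 libraries). When each gene was first averaged over the libraries, the median was 20.7%, beside 23.9% over 5980 detected genes. Tirap, Ticam1 and Traf6 have no isoform of this class.

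**Figure D3:**
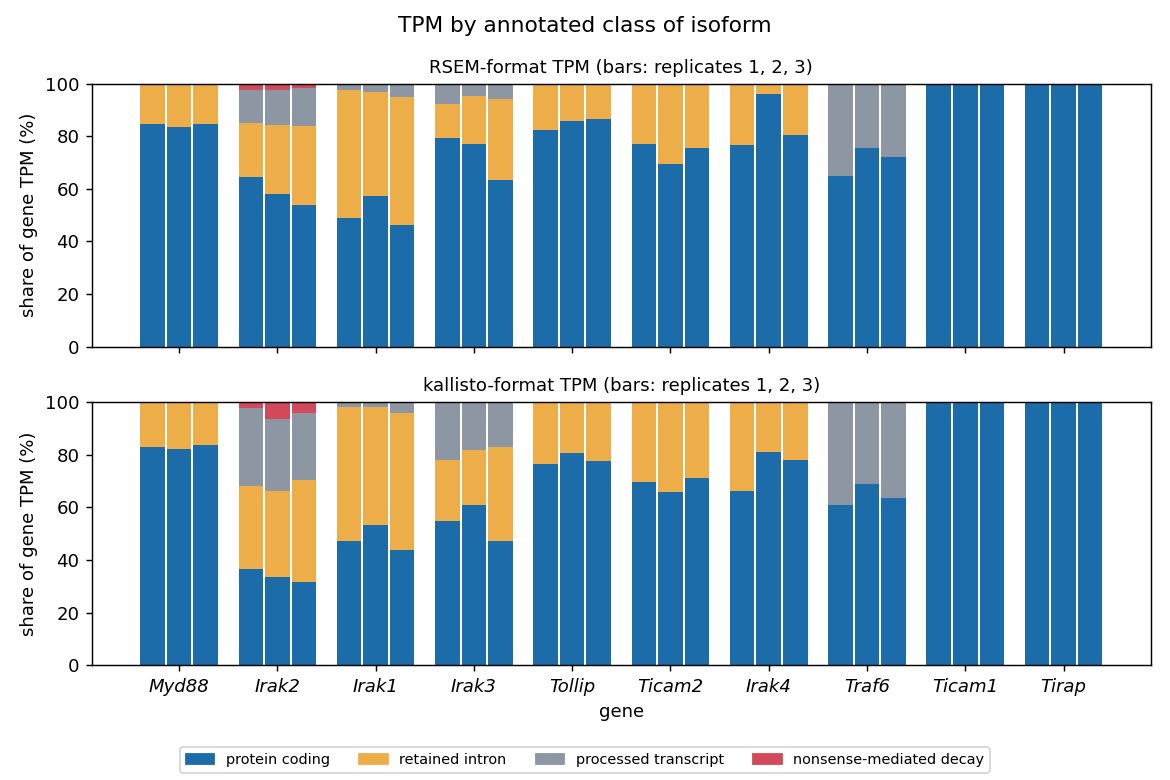
Share of each gene's TPM (%) by annotated class of isoform, in RSEM format (top) and kallisto format (bottom), with 1 bar per replicate. Irak1 shows the largest retained-intron share in both, and Irak2 loses protein-coding share in the kallisto format.

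Irak1 had the largest retained-intron share of the 7 genes. Its values were 48.8%, 39.8% and 48.6% of TPM, with a mean of 45.8% ± 5.18 (SD, n = 3), at percentile 83.4 of the 5980 genes. The kallisto-format mean was 49.3% ± 3.93. Replicate 2 was lowest in both formats. Of the expected counts, which weigh long isoforms more, 20.4% ± 4.87 fell to the class.

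The retained introns of Irak1 lay in the front part of the gene. Irak1-215 keeps intron 5 of the protein-coding form, and held 16.2% ± 2.96 of Irak1 TPM from 35 to 58 expected counts. Irak1-217 keeps intron 4, Irak1-218 introns 3 and 4, and Irak1-220 and Irak1-222 intron 1. Those 4 isoforms held between 5.29% and 8.20% each. The short forms Irak1-215, Irak1-217 and Irak1-218, of 576 to 834 bases, end before the kinase loop of exons 8 and 9.

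**Figure D4:**
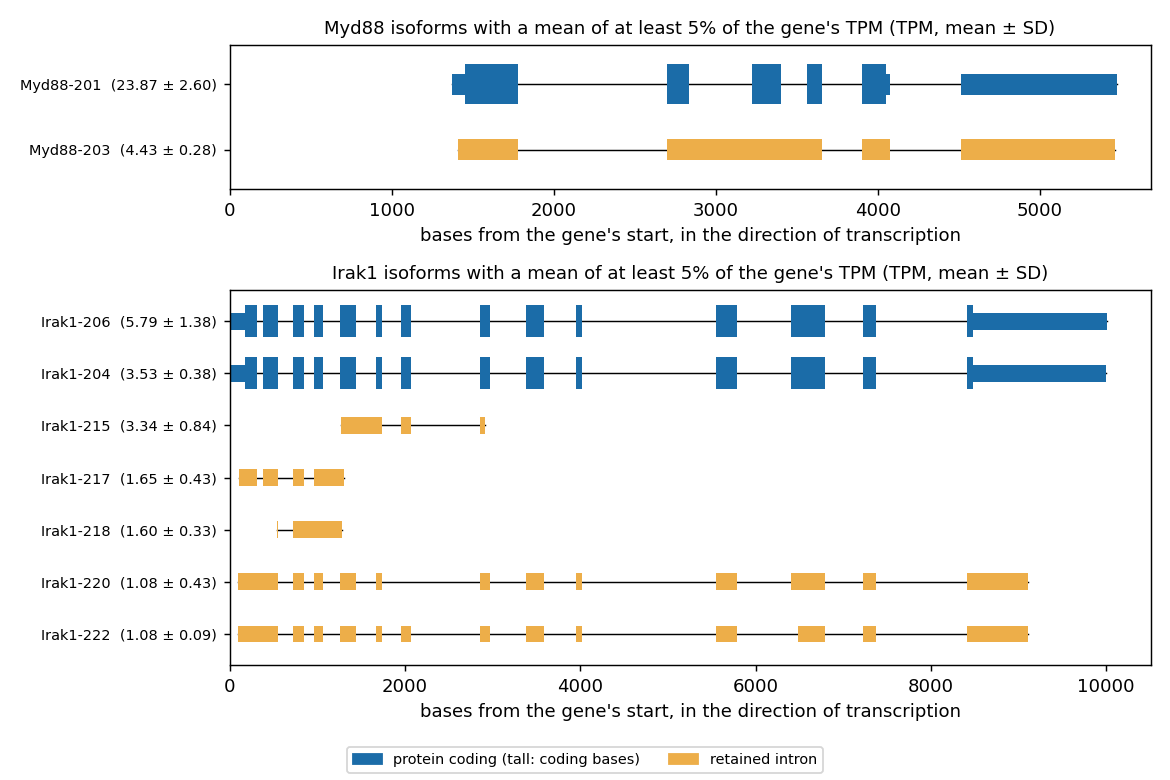
Exon maps of the Myd88 and Irak1 isoforms that held at least 5% of gene TPM, drawn to scale in bases from the gene's start, with mean TPM and SD of 3 libraries. Myd88-203 joins exons 2 to 4 into 1 block, and the shorter Irak1 retained-intron forms cover the front of the gene.

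The coding sequences of the 2 leading Irak1 isoforms differ by 3 bases, 1 codon, at the start of exon 5. Their outer ends differ by a few bases as well, and the whole isoforms have 3835 (Irak1-206) and 3825 bases (Irak1-204). The junction of exons 4 and 5 is printed for both (minus strand of chrX, from 74022638 to 74022872). The 3 bases are in capitals, to show how small the coding difference is.
Irak1-206: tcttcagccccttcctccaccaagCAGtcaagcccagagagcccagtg
Irak1-204: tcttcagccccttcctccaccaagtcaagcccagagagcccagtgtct
Irak1-206 held 57.9%, 68.6% and 58.4% of the summed TPM of the 2 in RSEM format. In kallisto format it held 49.2%, 63.4% and 38.9%. Replicate 2 had the highest share in both, and in kallisto format the libraries lay on either side of an even split. The deposited lower and upper bounds of the 2 isoforms' TPM overlapped in replicate 1 (3.60 to 6.67 for Irak1-206 and 2.33 to 5.23 for Irak1-204) and in replicate 3 (3.17 to 5.76 and 1.64 to 4.18). They did not overlap in replicate 2 (5.02 to 9.30 and 0.709 to 4.87).

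Myd88 showed the steadiest composition. Myd88-203, which keeps introns 2 and 3, held 15.2%, 16.5% and 15.4% of TPM in RSEM format, a mean of 15.7% ± 0.702 (SD, n = 3) from 239 to 367 expected counts. In kallisto format the mean was 17.0% ± 0.892. The 2 sequences below cross the end of exon 2 on chr9 (minus strand), with exon 3 (from 119338163) or the retained intron 2 (from 119338552) in capitals, both ending at 119338599.
Myd88-201: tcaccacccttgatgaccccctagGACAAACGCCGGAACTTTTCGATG
Myd88-203: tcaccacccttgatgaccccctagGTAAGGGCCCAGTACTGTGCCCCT
Both share the 24 bases of exon 2, and the intron opens with the GT of a splice donor.

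Irak2 had the composition that differed most between formats. Protein-coding isoforms held 58.8% ± 5.34 of its TPM in RSEM format and 33.9% ± 2.54 in kallisto format. The retained-intron share was 25.6% ± 4.66 against 34.5% ± 3.87. The share of processed transcripts (without a coding frame in the annotation) was 13.5% ± 1.14 against 27.3% ± 2.02. Irak2-206 and Irak2-205, both of this class, hold 246 and 348 bases from introns of Irak2-201. They too cannot be told apart from transcripts not yet fully spliced. The isoforms that gained most in kallisto format, Irak2-206 (7.78% to 18.2%) and Irak2-208 (12.0% to 18.5%), are short. The longer Irak2-204 (1887 bases) gained as well, from 7.62% to 10.8%. The cause was not tested. Irak2-208 (631 bases) ends in intron 3 and had 25 to 64 expected counts per library, Irak2-206 (542 bases) starts in that intron and had 11 to 32, while Irak2-201 (3196 bases) had 925 to 1366.

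A second protein-coding form, Irak2-202, lacks exon 3. It held 16.9%, 9.98% and 7.89% of the summed TPM of Irak2-201 and Irak2-202 in RSEM format, and 11.6%, 11.7% and 12.4% in kallisto format. Exon 3, in capitals below, has 144 bases (48 codons), so its omission keeps the reading frame. It is shown with the 24 coding bases on either side (chr6, plus strand, from 113647798 to 113670222), above the junction that omits it.
Irak2-201: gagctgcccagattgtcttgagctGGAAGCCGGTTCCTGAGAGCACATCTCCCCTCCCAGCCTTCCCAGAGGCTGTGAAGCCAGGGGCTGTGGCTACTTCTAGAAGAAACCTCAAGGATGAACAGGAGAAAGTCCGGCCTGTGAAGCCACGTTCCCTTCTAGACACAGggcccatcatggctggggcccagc
Irak2-202: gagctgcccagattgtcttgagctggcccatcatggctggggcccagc
The RSEM-format share of the shorter form was highest in replicate 1, and the kallisto-format shares lay within 1 percentage point of each other.

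Irak3 had a retained-intron form, Irak3-204, that ends in intron 8. It held 12.8%, 18.2% and 31.1% of TPM in RSEM format, a mean of 20.7% ± 9.40 (SD, n = 3) from 51 to 124 expected counts. In kallisto format it held 23.4%, 21.05% and 35.8%. Replicate 3 stood above the other two in both formats. The intron begins at the exon junction inside the kinase loop printed above, after the asparagine codon, so Irak3-204 leaves the coding sequence within that loop. The end of exon 8 is shown with exon 9 or intron 8 in capitals (chr10, minus strand, down from 120165116 to 120146606 and to 120165069).
Irak3-201: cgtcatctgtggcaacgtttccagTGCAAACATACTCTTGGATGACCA
Irak3-204: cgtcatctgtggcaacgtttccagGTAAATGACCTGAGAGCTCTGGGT
The protein-coding share of Irak3 TPM was 79.4%, 77.0% and 63.2% in RSEM format, and 54.7%, 60.9% and 47.3% in kallisto format, lowest in replicate 3 in both. Irak3-203, a processed transcript with 340 bases of intron 8, held 6.14% ± 1.59 in RSEM format and 18.9% ± 2.59 in kallisto format. It cannot be told apart from transcripts not yet fully spliced either.

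Irak4 divided between 2 protein-coding forms with different last exons. Irak4-202 held 47.5%, 30.4% and 40.0% of their summed TPM in RSEM format and 37.1%, 26.4% and 28.4% in kallisto format. Its exon 12 starts 11581 bases beyond the end of that of Irak4-201 and shares 395 bases with Twf1, a gene on the opposite strand (21.1 ± 3.59 TPM, SD, n = 3). No label states whether strand was used in counting, so reads from the shared bases may belong to either gene. The coding ends differ, with 30 coding bases in exon 12 of Irak4-201 and 12 in that of Irak4-202. The junctions of exons 11 and 12 are shown with coding bases of exon 12 in capitals (chr15, plus strand, from 94566874 to 94567037 and to 94579899).
Irak4-201: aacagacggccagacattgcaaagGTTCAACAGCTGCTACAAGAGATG
Irak4-202: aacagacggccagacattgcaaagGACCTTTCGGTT
The retained-intron form Irak4-203, which ends in intron 6, had TPM of 1.67, 0.32 and 1.53. Replicate 2 lay below the other two: the deposited upper bound there was 0.762, under the lower bounds of 1.05 and 0.840 in replicates 1 and 3. That value rests on 7.82 expected counts, against 57.3 and 47.7. In kallisto format its rescaled level was 15.2, 7.93 and 8.51, where replicate 2 lay close to replicate 3.

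Traf6 held 70.7% ± 5.46 (SD, n = 3) of its TPM in its only protein-coding isoform. The other 29.3% fell to the processed transcripts Traf6-202, which ends in intron 3, and Traf6-203, which starts in intron 2. Their share was 35.3%, 24.6% and 28.0% in RSEM format, lowest in replicate 2, and 39.1%, 31.2% and 36.3% in kallisto format. Both hold intron bases, so they cannot be told apart from transcripts not yet fully spliced.

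Tollip kept 84.9% ± 2.29 (SD, n = 3) of its TPM in protein-coding isoforms in RSEM format, nearly all of it in Tollip-201. In kallisto format the protein-coding share was 78.3% ± 2.24. Tollip-205, which keeps parts of introns 1 and 4, held 15.1% ± 2.29 in RSEM format and 21.7% ± 2.24 in kallisto format. Tirap had 7 isoforms, all protein coding. Those 4 that share the whole coding sequence of 249 codons held 96.4% ± 3.88 of its TPM in RSEM format and 87.2% ± 5.05 in kallisto format.

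Ticam2 held 26.0% ± 3.99 (SD, n = 3) of its TPM in a retained-intron form, and 31.1% ± 2.71 in kallisto format. Replicate 2, where Ticam2 was highest, also had the highest share of it, at 30.5%. Ticam2 shares 838 exonic bases, 14.5% of its exonic length, with Tmed7 on the same strand (15.31, 18.42 and 12.62 TPM in replicates 1, 2 and 3). Reads in those bases can be divided between the 2 genes only by estimation.

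Other members overlap exons of genes on the opposite strand over shorter stretches. Myd88 shares 290 bases with Acaa1a (28.3 ± 5.08 TPM), Irak3 shares 192 with Tmbim4 (41.1 ± 1.48 TPM), and Irak2 shares 196 with the unclassified locus Gm43963 (4.36 ± 0.295 TPM). Tirap shares 446 bases with the antisense gene Gm39318, which was near 0 (0.19 ± 0.213 TPM), and 39 with Srpr. The part of these overlaps in the members' values was not tested.

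The receptors and partners that work with these proteins were measured in the same nuclei. The counts of detected genes below stand beside 42.8% of all 22015 nuclear-encoded protein-coding genes. Of 19 receptor genes 12 were detected, from Tlr1, a partner of TLR2, at 104 ± 7.97 TPM (SD, n = 3) to Il1rap, the shared interleukin-1 receptor subunit, at 1.79 ± 0.425. Of 17 partners and regulators 13 were detected, from Pik3ap1, the adaptor BCAP, at 197 ± 8.67 to Scimp, a TLR4 scaffold, at 2.14 ± 0.575. Of 17 downstream kinases and factors 17 were detected, from Irf7, an interferon regulatory factor that MyD88 complexes can activate, at 386 ± 108 to Tab3, a TAK1 partner, at 3.18 ± 0.650. The median log2(TPM + 1) over each whole list was 3.81 ± 0.23, 3.90 ± 0.19 and 4.89 ± 0.13 for receptors, partners and downstream genes, beside 3.52 ± 0.21 for the adaptors and IRAKs. Tlr1, Pik3ap1 and Irf7 each exceeded Myd88 in every library. They were named because they were the highest of their lists in these same data, so this does not compare the lists with the members.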

How the data were processed

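Total RNA-seq of nuclear RNA from 3 libraries of 1 group was analysed. The authors' gene and transcript tables use GENCODE M21 annotation of mm10, per the submitters' processing notes. Their expected counts are the authors' unnormalised estimated counts, and in the deposited TPM values each library sums to the same total. A second transcript table in kallisto format holds the authors' estimated counts and TPM. Posterior mean TPM and TPM bounds are the authors' deposited values. No label or header states tool versions.

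Genes were matched by identifier. Rows without a gene name (26345, nearly all phiX counts) held 0.827%, 0.275% and 0.0547% of expected counts and were left out. Levels were described on the deposited TPM, and medians and spread on log2(TPM + 1), a pseudocount of 1. Ratios were taken within libraries without a pseudocount. The spread was recomputed with edgeR 4.0.16 TMM and DESeq2 1.42.0 size factors on rounded counts. The functions were tested on simulated data. Python 3.11.15, pandas 2.3.3 and numpy 2.4.6 were used.

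The members, lists and ratios were chosen with earlier results of these data known. All members are named, and of each pathway list the highest and the lowest detected gene. A planned comparison of protein sequences was not run, since no protein table was used here, and coding sequence was read from the transcripts instead. Intervals were not computed for single libraries, and PCR duplicates without molecular identifiers are not independent molecules.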

Additional observations from a re-analysis of the deposited data

How the results depend on the processing

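No paired analysis was possible because the design holds 1 group. No mean of the 7 tested log2 ratios changed sign with a pseudocount, expected counts, kallisto-format TPM, posterior means or a replicate left out. Nor did any mean of these over protein-coding isoforms alone, a choice made after seeing the data. Single libraries did over protein-coding isoforms: replicate 2 in kallisto format for Irak3 to Irak4 (-0.10) and Irak2 to Irak1 (-0.07), and replicate 1 for Ticam2 to Ticam1 (-0.16 and, in kallisto format, -0.13). Of the levels, shares and ratios recomputed for the main results, 56 stayed within 1 SD and 23 moved. Of the single-gene values, 126 stayed and 56 moved. The values with a replicate left out, 36 for the main results (counts included) and 78 for single genes, all stayed. Omission of 1 of 3 libraries cannot shift a mean by 1 SD, so these values tell nothing of stability. The 17 recomputed counts and median spreads stayed within 1.5 times, although the genes detected numbered 7 in kallisto format and 9 at a TPM of 5.

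With expected counts the log2 ratio was 1.57 for Myd88 to Ticam1, -1.19 for Irak4 to Irak1, -0.58 for Traf6 to Irak1 and -2.30 for Tirap to Myd88, where a pseudocount of 1 gave -2.91. With kallisto-format TPM it was -1.12 for Irak4 to Irak1, 0.85 for Irak2 to Irak1 and -2.56 for Tirap to Myd88. Over protein-coding isoforms in RSEM format it was 1.93 for Myd88 to Ticam1, -0.69 for Irak4 to Irak1, -1.19 for Traf6 to Irak1 and 0.17 for Ticam2 to Ticam1. In kallisto format those isoforms gave -0.48 for Irak4 to Irak1, 0.22 for Irak3 to Irak4, -1.27 for Traf6 to Irak1, -2.29 for Tirap to Myd88 and 0.20 for Ticam2 to Ticam1. The median level over the 10 genes was 5.68 after rescaling and 5.59 in rescaled kallisto format, since the denominator is smaller by construction. The median retained-intron share was 26.8% in kallisto format and 10.7% of expected counts, and the median protein-coding share (76.5%) was 68.8% and 89.5%. Apart from the scale by construction, the cause was not tested.

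Leaving out each replicate gave 2.09 to 2.29 for Myd88 to Ticam1, -1.50 to -1.32 for Irak4 to Irak1, 0.60 to 0.90 for Irak3 to Irak4, 0.12 to 0.37 for Irak2 to Irak1, -1.77 to -1.58 for Traf6 to Irak1, -3.49 to -3.14 for Tirap to Myd88 and 0.42 to 0.80 for Ticam2 to Ticam1. Without replicate 3 the Irak2 to Irak1 ratio was the lowest of these, 0.12. The spread of single genes depended on the scaling: the SD of Myd88 was 0.15 on log2(TPM + 1) and 0.29 after TMM, and that of Ticam2 0.42 and 0.35. Isoforms with under 100 expected counts per library limit the shares of the short forms.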

Other observations

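Smad6, an inhibitory SMAD listed among the regulators, had TPM of 2.10, 0.17 and 0.28 in replicates 1, 2 and 3, from 211, 12 and 25 expected counts, so it was not called detected. Il18rap, an interleukin-18 receptor subunit, differed between the formats, with a rescaled level of 1.09 ± 0.485 (SD, n = 3) in RSEM format and 15.0, 13.1 and 12.6 in kallisto format. Both genes were chosen after their values were seen, and no cause was tested.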
